A study of Mus musculus with 6 samples.

Results

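The proteasome genes of tumor-infiltrating Tregs were taken by symbol: every gene whose name begins with Psm, then a letter from a to g, then a digit, together with Psme1 to Psme4 and Pomp. The rule found 51 of the 15319 genes listed, and all 51 had at least 1 count. Of these, 14 encode the standard 20S core, 3 its immunoproteasome replacements, 17 the 19S regulator, and the others activators, assembly chaperones, tissue-specific subunits and an inhibitor. Psmc3ip matched the rule by name only: it is a factor of meiotic recombination and no part of the proteasome.

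The proteasome degrades proteins tagged with ubiquitin. Its barrel-shaped 20S core is a stack of alpha and beta rings whose cutting sites are carried by Psmb5, Psmb6 and Psmb7, and the 19S cap recognises, deubiquitinates and unfolds the substrate. In lymphocytes, and in other cells exposed to interferon-gamma, newly built cores take up Psmb8, Psmb9 and Psmb10 in place of Psmb5, Psmb6 and Psmb7, which gives the immunoproteasome, known for its part in making peptides for MHC class I.

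RNA-Seq was performed on Tregs from lungs bearing tumors of LLC, a mouse lung carcinoma line, 21 days after the cells were given through the tail vein. The 3 WT libraries came from Foxp3Yfp-Cre mice and the 3 cKO libraries from Xrcc6flox/floxFoxp3Yfp-Cre mice, injected at 8 to 10 weeks of age and on a C57BL/6J background, so both groups carried the Yfp-Cre driven by Foxp3, and Xrcc6, which encodes Ku70, was removed only in cells that had expressed Foxp3. Whether a library pooled several mice is not given in the sources used here, so the p-values describe the spread between these libraries. Libraries were made with a SMARTER mRNA kit.

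Levels are given in CPM, the usual count scale that divides each gene by its library's total, with totals scaled by edgeR's TMM method. Totals ran from 19032620 to 23159815 counts per library, and 3 counts, the limit that a count of 0 allows, were worth 0.133 to 0.156 CPM, which covers counting error only. WT replicate 2 stood apart, with 11513 genes detected against 14442 to 14737 in the other libraries and a best correlation with another library of 0.930 against 0.991 to 0.993, so most fold changes are given with and without it. Group values are listed in the order of replicates 1, 2 and 3. Xrcc6 read 20.9, 63.1 and 23.8 CPM in the WT and 5.24, 3.51 and 4.18 CPM in the cKO libraries, so each cKO library was below each WT library. All 7 Treg and T cell markers (Foxp3, Il2ra, Ctla4, Ikzf2, Cd3e, Cd3d and Cd4) were detected and summed to 3963 to 5257 CPM in WT and 4294 to 4761 CPM in cKO. Markers of other cells were lower: macrophages and dendritic cells summed to 164 to 617 CPM in WT and 206 to 795 in cKO over 9 of 9 markers, neutrophils to 3.92 to 10.9 and 9.33 to 15.1 over 8 of 9 (Camp had none), and B cells to 14.7 to 23.7 and 12.02 to 47.5 over 4 of 4. Epithelial markers summed to 36.6 to 100.4 and 39.3 to 68.5 CPM over 6 of 6, endothelial markers to 60.4 to 79.8 and 69.4 to 93.7 over 3 of 3, CD8 T and NK cell markers to 5.22 to 21.0 and 18.5 to 20.1 over 3 of 4 (Ncr1 had none), and hemoglobin genes to 0 to 9.49 and 10.7 to 35.9 over 4 of 4. In edgeR, 3 of the 8 neutrophil markers passed an unadjusted p of 0.05, all higher in cKO, against 1.81% of all genes. No marker of another list passed it. Without WT replicate 2 it was again 3 neutrophil markers, all higher, against 3.01% of all genes. There 2 hemoglobin genes also passed, both higher, and 1 macrophage and dendritic cell marker, lower. The part of these other cells in the proteasome values was not tested.

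The promoters of the paired catalytic genes are shown because the constitutive and immune forms answer to different transcription factors: Nrf1 (Nfe2l1) is known to drive proteasome genes through antioxidant response elements, and interferon-gamma drives the immune forms through factors such as IRF1. Each run holds the 250 bases before and 50 bases after the RefSeq start on GRCm38.p6, written 5′ to 3′ along the gene, with any match to the antioxidant response element core TGACNNNGC in capitals. The windows are chr14:54617946-54618245 (minus strand) for Psmb5, chr11:70525107-70525406 (plus) for Psmb6, chr17:34197945-34198244 (plus) for Psmb8 and chr17:34187281-34187580 (minus) for Psmb9. No entry was found for Psmb7.
Psmb5: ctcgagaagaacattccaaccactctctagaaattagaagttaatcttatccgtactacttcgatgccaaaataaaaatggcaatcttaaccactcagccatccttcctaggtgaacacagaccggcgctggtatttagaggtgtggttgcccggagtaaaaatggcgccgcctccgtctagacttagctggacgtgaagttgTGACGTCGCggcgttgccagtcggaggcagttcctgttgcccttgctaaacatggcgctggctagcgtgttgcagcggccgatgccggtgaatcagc
Psmb6: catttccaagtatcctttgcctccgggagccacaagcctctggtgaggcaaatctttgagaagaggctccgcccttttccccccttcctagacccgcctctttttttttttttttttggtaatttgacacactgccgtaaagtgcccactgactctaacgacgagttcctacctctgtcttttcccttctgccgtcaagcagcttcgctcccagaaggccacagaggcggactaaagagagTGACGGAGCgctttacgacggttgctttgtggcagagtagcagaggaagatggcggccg
Psmb8: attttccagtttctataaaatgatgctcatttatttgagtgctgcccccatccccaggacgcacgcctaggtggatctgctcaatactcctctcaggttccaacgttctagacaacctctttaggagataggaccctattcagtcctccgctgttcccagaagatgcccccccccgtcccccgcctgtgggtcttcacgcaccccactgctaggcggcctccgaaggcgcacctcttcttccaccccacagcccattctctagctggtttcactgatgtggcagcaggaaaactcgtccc
Psmb9: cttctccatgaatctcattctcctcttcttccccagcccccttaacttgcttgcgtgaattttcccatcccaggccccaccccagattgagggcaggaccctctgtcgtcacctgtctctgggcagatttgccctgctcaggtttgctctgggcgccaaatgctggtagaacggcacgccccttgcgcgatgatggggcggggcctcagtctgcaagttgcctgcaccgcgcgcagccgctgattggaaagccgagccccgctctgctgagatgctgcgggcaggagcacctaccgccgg

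The motif began 47 bases before the start of Psmb5 and 9 bases before that of Psmb6, and neither the Psmb8 nor the Psmb9 window held it. Among the 43 proteasome genes with a RefSeq window, TGACNNNGC was found on either strand in 6 (14%), against 14% of 27025 genes. The interferon-response core, GAAA followed by any 2 bases and GAAA again, was found on either strand in 5 of the 43 (11.6%), namely Psmb3, Psmd4, Psmd9, Psme1 and Psmg4, against 4.0% of all genes, and not in the windows of Psmb8, Psmb9 or Psmb10. CCAAT, the core of the NF-Y site, was found in 15 (34.9%) against 41.1%. These are matches of letters in short windows that can overlap one another. Psmb9 is read away from Tap1, the peptide transporter gene: their starts lie 226 bases apart and their windows share 275 bases.

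The immune catalytic subunits were strongly expressed in both genotypes, and none of the 6 catalytic genes differed between the genotypes by more than the spread between libraries. Psmb8, the chymotrypsin-like subunit of the immunoproteasome, had the highest CPM of the 51 genes, a scale on which length also counts, with 582, 272 and 412 CPM in WT and 374, 508 and 456 CPM in cKO. Psmb9, which takes the place of the caspase-like Psmb6, was at 293, 134.5 and 213 CPM in WT and 189.9, 244 and 175 CPM in cKO. Psmb10, the trypsin-like subunit, was at 128, 39.8 and 111 CPM in WT and 90.2, 123 and 108 CPM in cKO. For each of the 3 genes WT replicate 1 was the highest and WT replicate 2 the lowest of the 6 libraries, and the cKO values lay between them. In bulk RNA, fewer cells of a type and less RNA per cell cannot be told apart.

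The constitutive subunits were likewise highest in WT replicate 1. Psmb5, the chymotrypsin-like subunit that proteasome inhibitors chiefly bind, was at 116.5, 46.3 and 74.1 CPM in WT and 80.4, 97.1 and 80.1 CPM in cKO. Psmb6, the caspase-like subunit, was at 179, 70.8 and 138 CPM in WT and 127, 163 and 137 CPM in cKO. Psmb7, the trypsin-like subunit, was at 115, 77.9 and 85.6 CPM in WT and 70.1, 103 and 84.0 CPM in cKO. WT replicate 2 was the lowest library for Psmb5 and Psmb6, and cKO replicate 1 for Psmb7.

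**Figure D1:**
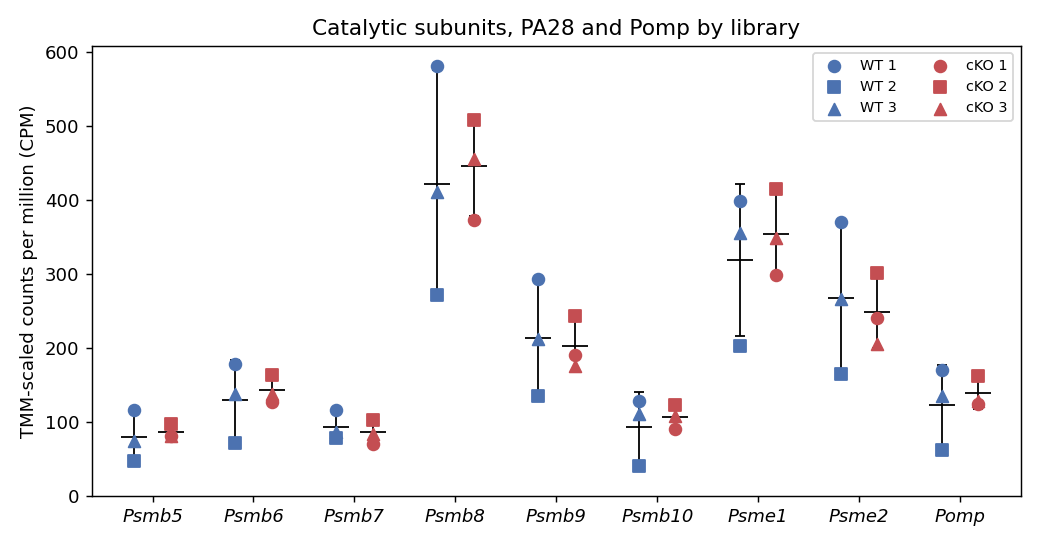
CPM of the catalytic subunits, Psme1, Psme2 and Pomp in each library, with WT in blue and cKO in red, a marker shape per replicate number, and black bars for the mean ± SD of 3 libraries. The 2 genotypes overlap for each of the 9 genes, and WT replicate 1 lies above WT replicate 2 throughout, as for Psmb8 at 582 against 272 CPM.

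In edgeR's quasi-likelihood fit over all 6 libraries, none of the 6 catalytic genes passed the test of genotype. On the log2 scale, the change from WT to cKO was 0.08 (SE 0.29) for Psmb8, -0.07 (SE 0.29) for Psmb9 and 0.20 (SE 0.39) for Psmb10. The constitutive genes gave 0.12 (SE 0.31) for Psmb5, 0.14 (SE 0.31) for Psmb6 and -0.12 (SE 0.21) for Psmb7. Without WT replicate 2 all 6 were negative, from -0.15 for Psmb5 (SE 0.20) to -0.32 for Psmb9 (SE 0.20), and none passed an unadjusted threshold of 0.05. The sign changed for 4 of the 6 without that library, and the other 2 changed sign without WT replicate 1, to 0.22 for Psmb9 and 0.07 for Psmb7.

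The exchange of subunits was read within each library from the ratio of each immune gene to the constitutive gene it replaces, which needs no scaling between libraries. Psmb8 over Psmb5 was 4.99, 5.88 and 5.55 in WT and 4.65, 5.24 and 5.69 in cKO, so the genotypes overlapped (exact permutation p = 0.6, two-sided, 0.6 adjusted over the 3 pairs, and 1 without WT replicate 2). Psmb9 over Psmb6 was 1.64, 1.90 and 1.54 in WT and 1.49, 1.495 and 1.28 in cKO. This was the only pair of the 3 whose genotypes did not overlap: the mean log2 ratio was lower in cKO by 0.25, and the exact permutation p of 0.1 is the smallest that 3 against 3 can give, or 0.3 adjusted. Without WT replicate 2 the difference was -0.16 (exact permutation p = 0.3, where 0.1 is again the smallest possible). Leaving out a library cannot make such groups overlap, so that fit is no further check of the separation.

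Psmb10 over Psmb7 was 1.11, 0.510 and 1.299 in WT and 1.29, 1.20 and 1.28 in cKO. The log2 difference of 0.48 came from WT replicate 2 and was 0.06 without it (exact permutation p = 0.4, 0.6 adjusted, and 0.7 without that library). Summed over the 3 pairs, the immune to constitutive ratio was 2.44, 2.29 and 2.47 in WT and 2.36, 2.41 and 2.45 in cKO, a spread of SD 0.0982 and 0.0486. The summed ratio thus varied little in any library, WT replicate 2 included, although the 3 pairs within it did not move alike.

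**Figure D2:**
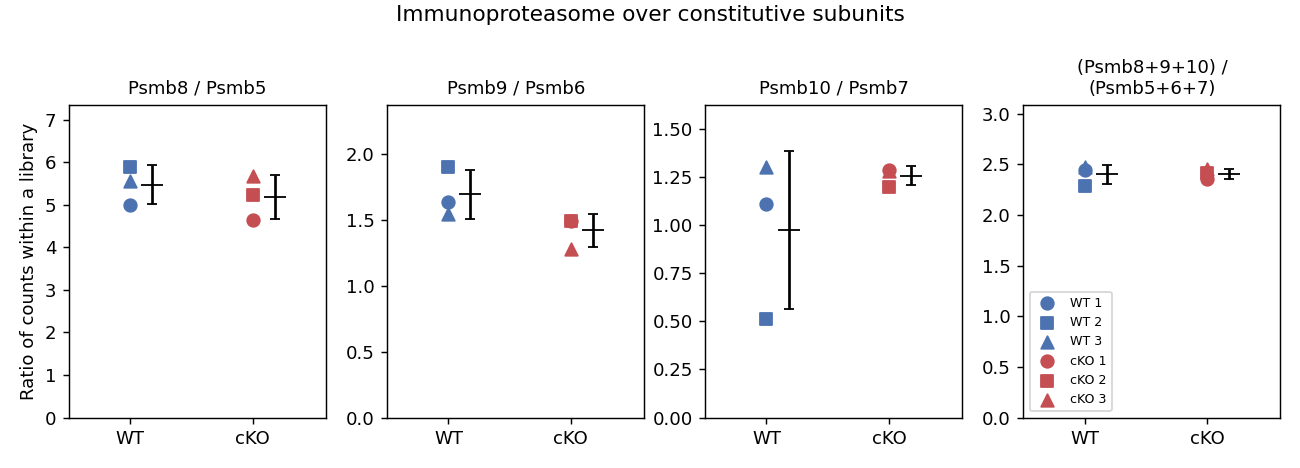
Ratio of immune to constitutive catalytic subunit counts within each library, with an axis from 0 in each panel, markers as replicates and bars as mean ± SD of 3 libraries. Psmb9 over Psmb6 is lower in the 3 cKO libraries (1.28 to 1.495) than in the 3 WT libraries (1.54 to 1.90), and Psmb10 over Psmb7 is low in WT replicate 2 alone (0.510).

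Per kilobase of exon, the scale on which genes can be compared, Psmb8 exceeded Psmb5 in every library under both gene models tried, and the summed immune level exceeded the summed constitutive level. With merged exons of the GENCODE basic transcripts, Psmb8 over Psmb5 was 2.57 to 3.25 over the 6 libraries, Psmb9 over Psmb6 0.754 to 1.12, Psmb10 over Psmb7 0.452 to 1.15, and the sum 1.42 to 1.505. With all GENCODE transcripts they were 1.24 to 1.56, 0.654 to 0.971, 1.02 to 2.61 and 1.21 to 1.35. Reads from genes on the opposite strand could add to these counts, since it is not given whether counting used strand: 14.7% of the exon bases of Psmb8 overlap the antisense Gm20496, 11.8% of those of Psmb7 overlap Nek6, and 5.8% of those of Psmb9 overlap Tap1.

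Psme1 and Psme2, the alpha and beta chains of the interferon-inducible PA28 activator that opens the core, were also lowest in WT replicate 2. Psme1 was at 399, 203 and 355 CPM in WT and 298, 414.5 and 348 CPM in cKO, with a log2 fold change of 0.15 (SE 0.27), or -0.09 without WT replicate 2. Psme2 was at 370, 165 and 266 CPM in WT and 240, 302 and 205 CPM in cKO, with -0.10 (SE 0.30) and -0.35 (SE 0.21). Both genes had overlapping genotypes. The ratio Psme2 over Psme1 was 0.927, 0.815 and 0.748 in WT and 0.806, 0.728 and 0.589 in cKO. Psme2b, a single-exon gene whose transcript matches Psme2 at 99.4% over 794 of 837 bases, was listed at 16.6 to 24.3 CPM, so the counts of Psme2 and Psme2b may be partly exchanged.

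Psme3, which encodes the nuclear PA28 gamma, and Psme4, which encodes the PA200 activator linked to histone degradation, went the other way in WT replicate 2. Psme3 was at 112, 161 and 99.96 CPM in WT and 123, 120.1 and 111 CPM in cKO, with a log2 fold change of -0.08 (SE 0.20), or 0.15 without WT replicate 2. Psme4 was at 25.6, 49.3 and 32.4 CPM in WT and 27.0, 21.9 and 22.4 CPM in cKO. Psme4 had the smallest p of the 51 genes, with a log2 fold change of -0.59 (SE 0.27, edgeR adjusted p = 0.984), and without WT replicate 2 it was -0.29 (SE 0.16). It passed the unadjusted threshold of 0.05 without WT replicate 1 (-0.78), where 5.71% of all genes did. Its WT and cKO libraries overlapped, at 25.6 CPM in WT replicate 1 and 27.0 CPM in cKO replicate 1.

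Among the 51 genes, 0 passed an unadjusted p of 0.05 in edgeR, against 1.81% of the 15315 genes tested, and 0 did without WT replicate 2, against 3.01% of 15302. DESeq2 also gave 0 in both fits, against 2.01% and 2.42% of all genes. The voomWithQualityWeights method of limma, which lowers the weight of variable libraries, gave 2, against 3.55% of all genes. After Benjamini-Hochberg adjustment 0 passed in either edgeR fit, where 0% of all genes were called over 6 libraries and 0.00654%, which is Xrcc6 alone, without WT replicate 2. The 95% interval of the log2 fold change lay within 1 in either direction (a 2-fold change) for 42 of the 51 genes. It did so for 6354 of the 15315 genes tested. Without WT replicate 2 the counts were 48 of the 51 genes and 9600 of 15302. Intervals are narrower for abundant genes, and 38 of the 51 genes had a mean of 50 CPM or more, against 3804 of all genes. No share among genes of like abundance was taken, so these counts do not show that proteasome genes were unusually stable. The median log2 fold change was 0.07, against 0.04 for all genes tested, with 32 higher and 19 lower in cKO. Without WT replicate 2 the median was -0.10, against -0.01, with 15 higher and 36 lower. Of all genes tested, 8343 were higher and 6972 lower in cKO, or 7438 and 7864 without that library.

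Leaving out WT replicate 2 changed the sign of 9 of the 14 standard subunits of the 20S core. The 14 subunits, 7 in the alpha ring that gates the chamber and 7 in the beta ring, were higher in cKO for 9 and lower for 5 over all libraries, with a median log2 fold change of 0.07. Without WT replicate 2 all 14 were lower, from -0.03 to -0.23 with a median of -0.16, and none passed the test. Their summed level was 3370, 1952 and 2567 CPM in WT and 2387, 3021 and 2609 CPM in cKO. WT replicate 1 was the highest library for 12 of the 14, and cKO replicate 2 was the highest cKO library for all 14. The subunits thus were high or low together between libraries, within the cKO group as well as the WT group, and are not independent counts of a genotype difference.

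Psma3, an alpha-ring subunit with the second highest CPM, did not share the low level of WT replicate 2, at 396, 367 and 351 CPM in WT and 331, 354 and 301 CPM in cKO (log2 fold change -0.18, SE 0.15, and -0.19 without that library). Psmb3, a beta-ring subunit without a cutting site, was at 360, 263 and 239 CPM in WT and 258, 305 and 274 CPM in cKO (-0.04, SE 0.19, and -0.10 without WT replicate 2). Psmb3 had the highest level per kilobase of the basic gene models, 369.5 CPM per kilobase on average, followed by Psme1 at 302.5 and Psmb8 at 266.5. With all transcripts the first 3 were Psme1 at 152, Psme2 at 146 and Psma6 at 135 CPM per kilobase. The 14 core subunits ran from 77.0 to 369.5 CPM per kilobase of the basic models, and the 17 19S subunits taken by symbol from 19.6 to 84.5. With all transcripts these ranges were 26.1 to 135 and 10.9 to 65.7, so they overlapped more widely. The 19S range leaves out Adrm1 and Sem1, 19S subunits without a Psm symbol. These averaged 89.3 and 199 CPM, and their levels per kilobase were not computed.

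The 17 subunits of the 19S regulator taken by symbol leaned upward in cKO over all libraries. That lean shrank to near 0 without WT replicate 2, with no subunit past the test in either fit. The 6 ATPases of the regulator (Psmc1 to Psmc6), which unfold the substrate, summed to 577, 451 and 499 CPM in WT and 503.5, 586 and 519 CPM in cKO. Their log2 fold changes lay between -0.04 and 0.19. The 8 lid subunits were all lowest in WT replicate 2 and all higher in cKO over 6 libraries, with a median of 0.20, but without that library 5 were higher and 3 lower, with a median of 0.02. Over all 17 subunits, 15 were higher and 2 lower, and 11 and 6 without WT replicate 2. For all genes tested the counts were 8343 higher and 6972 lower, and 7438 and 7864 without that library. The 3 largest positive values among genes at 5 CPM or more were all 19S subunits. Psmd3, a lid subunit, was at 99.5, 37.3 and 83.2 CPM in WT and 98.97, 99.01 and 99.5 CPM in cKO (0.44, SE 0.32), and the value fell to 0.12 (SE 0.13) without WT replicate 2. Psmd2, a large scaffold subunit of the base, was at 183, 83.6 and 145 CPM in WT and 174, 167 and 173 CPM in cKO (0.32, SE 0.27, and 0.06 without that library). Psmd12, a lid subunit, was at 58.3, 24.3 and 57.0 CPM in WT and 52.0, 64.1 and 56.3 CPM in cKO (0.31, SE 0.32, and 0.00 without that library). In these 3 genes the WT group without replicate 2 overlapped the cKO group.

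**Figure D3:**
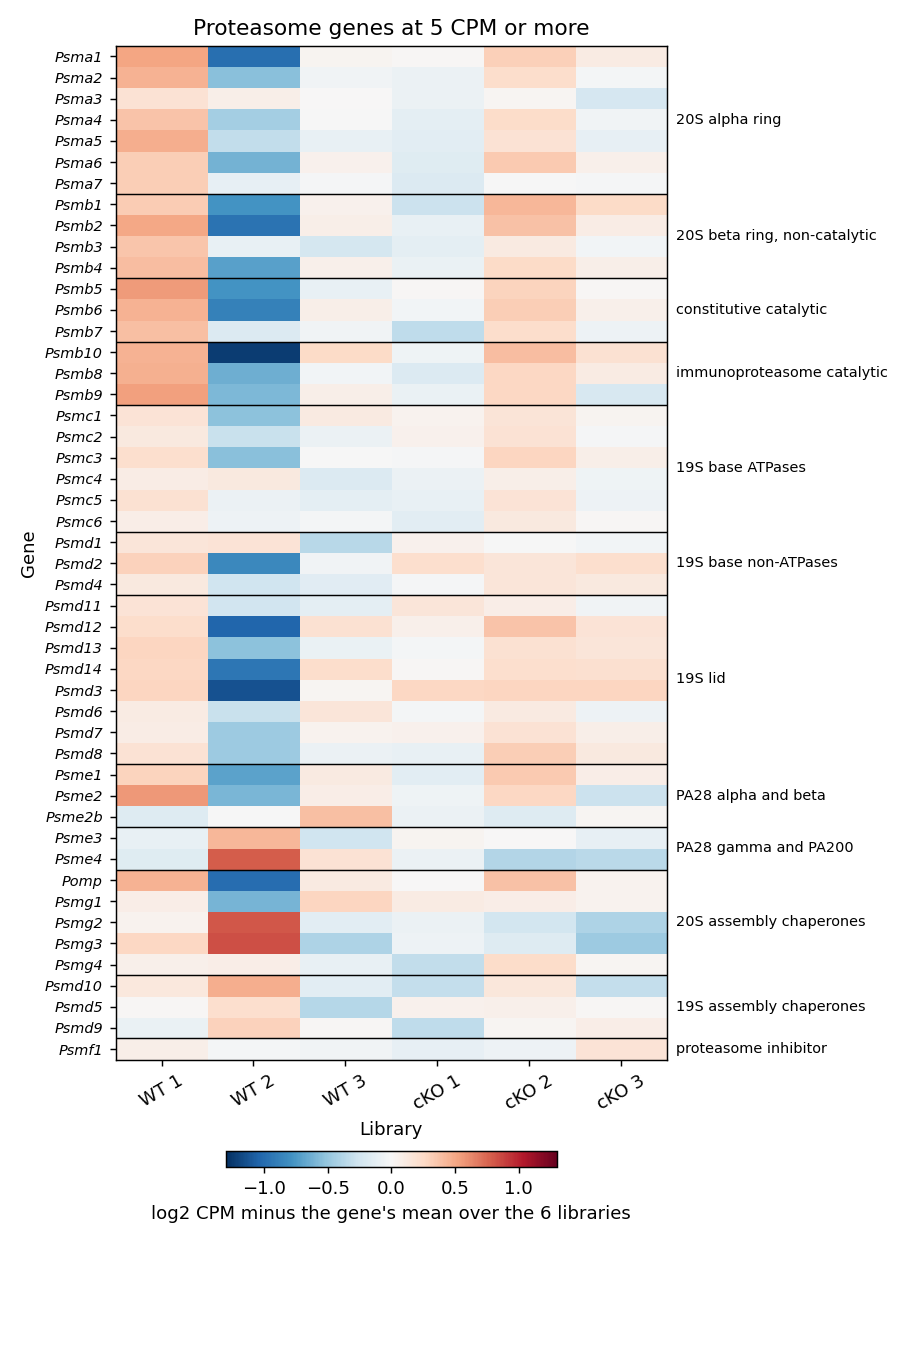
Each row is 1 of the 48 proteasome genes with a mean of at least 5 CPM, each column a library, and color gives log2 CPM minus the gene's mean over the 6 libraries, with red higher and blue lower. WT replicate 2 is blue through most of the core, lid and PA28 alpha and beta rows and red for Psme4, Psmg2 and Psmg3, and WT replicate 1 and cKO replicate 2 are red over most of the core.

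The chaperones of 20S assembly differed among themselves in WT replicate 2, and none passed the test of genotype. Pomp, which helps the beta subunits join new cores, was at 170, 62.4 and 135 CPM in WT and 125, 162 and 128 CPM in cKO (log2 fold change 0.18, SE 0.34, and -0.14 without WT replicate 2). Psmg1, which works with Psmg2 on the alpha ring, was also lowest in WT replicate 2, at 9.45 CPM against 14.8 to 17.5 CPM in the other libraries. Psmg2 was at 27.2, 46.4 and 24.0 CPM in WT and 25.2, 22.4 and 19.97 CPM in cKO (-0.53, SE 0.28). Psmg3, which pairs with Psmg4, was at 26.0, 38.5 and 16.4 CPM in WT and 20.6, 19.3 and 15.5 CPM in cKO (-0.55, SE 0.33). Psme4, Psmg3 and Psmg2 were the 3 largest negative values at 5 CPM or more, each was highest in WT replicate 2, and without that library Psmg2 and Psmg3 came to -0.19 and -0.20. Neither passed the test over 6 libraries, and both passed the unadjusted threshold without WT replicate 3 (-0.71 and -0.80), where 3.76% of all genes did. All 3 of the 19S chaperones (Psmd5, Psmd9 and Psmd10) were also highest in WT replicate 2, and Psmf1, the inhibitor PI31, was at 52.5 to 63.7 CPM in all libraries.

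WT replicate 2 therefore had its own pattern over the proteasome genes. It was the lowest of the 6 libraries for 28 of the 38 members at a mean of 50 CPM or more (73.7%), against 38.5% of the 3804 genes at that level, and the highest for 3 (7.89%), against 36.1%. For the 10 members between 5 and 50 CPM it was lowest for 2 (20%) and highest for 6 (60.0%), against 41.8% and 37.9% of 5843 genes. The summed level of all 51 genes was 7513, 4547 and 5962 CPM in WT and 5699, 6965 and 6084 CPM in cKO, which was 0.724%, 0.499% and 0.601% of the deposited counts in WT and 0.592%, 0.648% and 0.591% in cKO. The reason for this library's pattern was not tested.

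**Figure D4:**
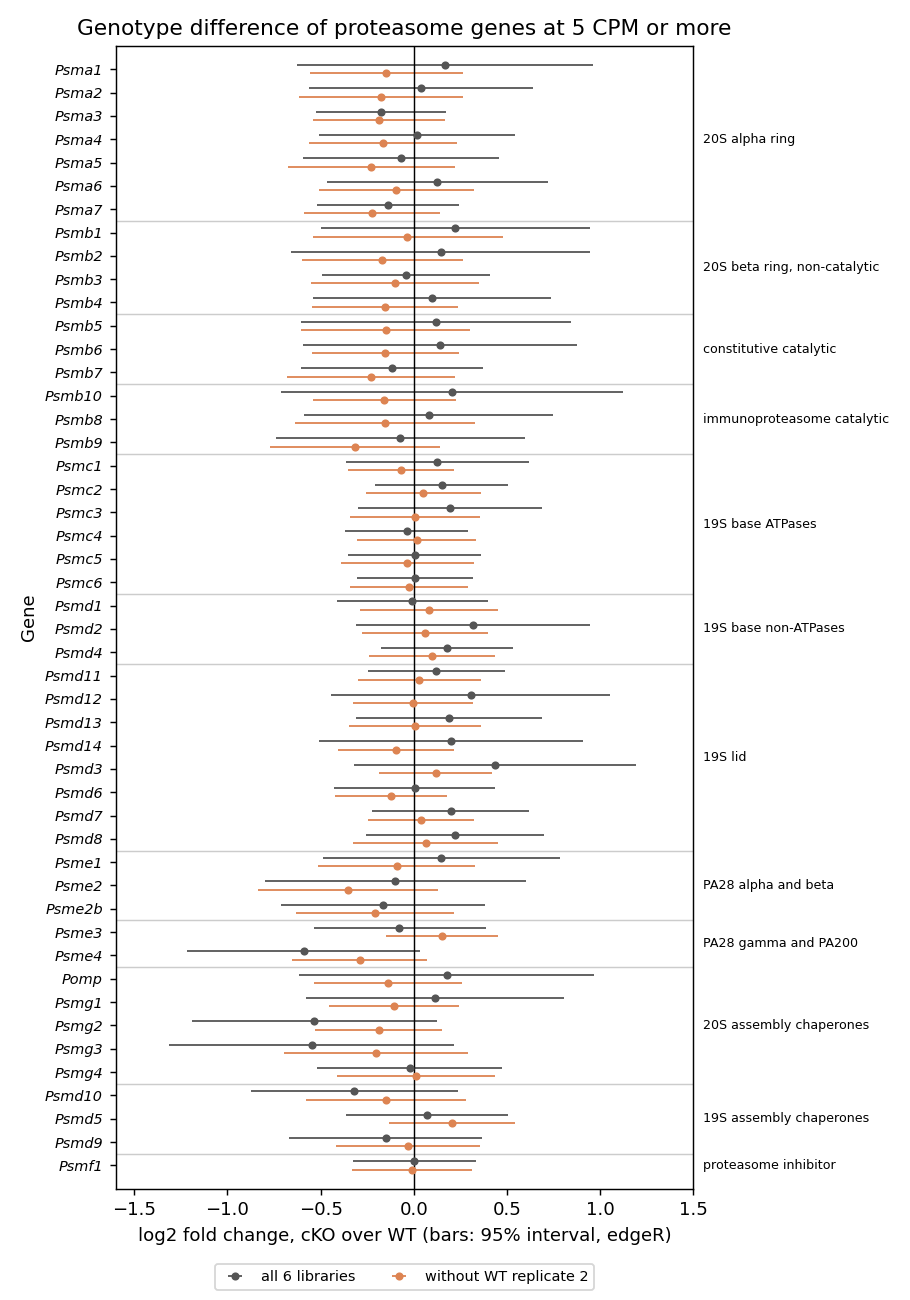
Log2 fold change of cKO over WT from edgeR for the 48 proteasome genes with a mean of at least 5 CPM, grouped by subcomplex, with points for the estimate and bars for its 95% interval over all 6 libraries (grey) or without WT replicate 2 (orange). Every interval includes 0, the 14 core subunits lie left of 0 without WT replicate 2 (-0.03 to -0.23), and the intervals are narrower there, with a median SE over all 51 genes of 0.170 against 0.237.

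The libraries of the 2 genotypes did not overlap for 2 of the 51 genes, Psmb11 and Psmc3ip, against 8.24% of all genes, and for 3 without WT replicate 2, against 16.0%. Both were lower in cKO. With other libraries left out, the count was 11 without WT replicate 1 (26.8% of all genes), 7 without WT replicate 3 (21.7%), 5 without cKO replicate 1 (19.7%), 4 without cKO replicate 2 (14.1%) and 3 without cKO replicate 3 (11.4%). With library size only it was 4, against 7.1% of all genes. Psmb11, the thymoproteasome subunit known from thymic cortical epithelium, was near the floor of detection. It had 5, 8 and 7 counts in WT and 2, 2 and 2 counts in cKO, of which 5 were rounded from estimates that were not whole. Its 20 WT counts against 6 cKO counts, at these totals, were a ratio of 3.52 with a counting interval of 1.36 to 10.7. That interval, like the one for Psma8 below, covers counting error only and leaves out the spread between libraries. Psmb11 did not pass the unadjusted threshold in edgeR. Psmc3ip was at 2.87, 3.34 and 2.34 CPM in WT and 1.72, 2.07 and 1.87 CPM in cKO (log2 fold change -0.60, SE 0.56, and -0.47 without WT replicate 2), and 21.2% of its exon bases overlap Mlx on the other strand. Psmd14, the deubiquitinase of the lid, was the third gene, named after its values were seen: its level was 125, 54.1 and 122 CPM in WT and 105, 121 and 120.1 CPM in cKO (log2 fold change 0.20, SE 0.30, or -0.10, SE 0.14, without WT replicate 2). Psma8, the alpha subunit of spermatogenic cells, had 1, 0 and 3 counts in WT and 0, 2 and 6 counts in cKO, which is 4 against 8 counts, a ratio of 0.528 with a counting interval of 0.116 to 1.97.

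Outside the 51 genes taken by symbol, a list of 30 symbols for the ubiquitin and proteasome pathway had 26 genes with counts. Some of its symbols are older names of other genes in the list. It includes Adrm1 and Sem1, which encode 19S subunits without a Psm symbol. Their log2 fold changes were -0.19 (SE 0.16) and 0.06 (SE 0.31), or -0.03 and -0.20 without WT replicate 2. In edgeR 1 of the 26 passed an unadjusted p of 0.05, upward, against 1.81% of all genes, and without WT replicate 2 it was 2, both upward, against 3.01%. The list had a median log2 fold change of 0.04 against 0.04 for all genes tested, and 0.10 against -0.01 without that library. Zfand2a, which encodes a proteasome-associated protein induced by arsenite, was at 53.6, 59.9 and 63.6 CPM in WT and 87.1, 71.9 and 70.8 CPM in cKO, with each cKO library above each WT library (log2 fold change 0.38, SE 0.15, edgeR adjusted p = 0.984, and also 0.38 without WT replicate 2). It no longer passed the unadjusted threshold without WT replicate 1 (0.31) or without cKO replicate 1, 2 or 3 (0.27, 0.42 and 0.43). Ubqln2, a shuttle that brings ubiquitinated proteins to the proteasome, was at 53.1, 80.5 and 58.3 CPM in WT and 75.5, 68.8 and 71.8 CPM in cKO, and in edgeR did not pass over 6 libraries (0.17, SE 0.18) but passed the unadjusted threshold without WT replicate 2 (0.37, SE 0.13, edgeR adjusted p = 0.998). Ubb and Rps27a, which encode ubiquitin, were among the 3 most abundant. Ubb was highest in WT replicate 2, at 5905 CPM against 3980 to 5162 CPM elsewhere, and Rps27a, whose ubiquitin is fused to a ribosomal protein, was lowest there, at 967 CPM against 1873 to 3256 CPM in the other libraries. Neither passed the test, with log2 fold changes of -0.16 (SE 0.26) for Ubb and 0.31 (SE 0.43) for Rps27a, or -0.04 and -0.03 without WT replicate 2.

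Of the 19 genes of interferon-gamma induction and MHC class I processing, 15 were higher and 4 lower in cKO, or 9 and 10 without WT replicate 2, and 1 passed an unadjusted p of 0.05, against 1.81% of all genes. Without WT replicate 2, 0 passed in edgeR, against 3.01%. The median log2 fold change was 0.07, against 0.04 for all genes tested, or -0.04 against -0.01 without WT replicate 2. Among all genes tested 8343 were higher and 6972 lower, or 7438 and 7864 without that library. Nlrc5, the transactivator of MHC class I genes, was at 179, 296 and 220 CPM in WT and 191, 138 and 142 CPM in cKO (-0.56, SE 0.23, edgeR adjusted p = 0.984), past the unadjusted threshold only. WT replicate 1 at 179 CPM lay below cKO replicate 1 at 191 CPM. It no longer passed that threshold without WT replicate 2 (-0.35, SE 0.18), WT replicate 3 (-0.59), cKO replicate 2 (-0.48) or cKO replicate 3 (-0.49). B2m, the light chain of MHC class I and the most abundant of the list, was at 8562, 2945 and 7462 CPM in WT and 6589, 8921 and 7138 CPM in cKO, so it too was lowest in WT replicate 2. Ifngr1, a chain of the interferon-gamma receptor, was at 959 to 1263 CPM in all libraries. Tap1, which shares its promoter region with Psmb9, was at 438, 322.5 and 365 CPM in WT and 410, 383 and 357 CPM in cKO, and the ratio Tap1 over Psmb9 was 1.495, 2.40 and 1.71 in WT and 2.16, 1.57 and 2.04 in cKO. The pair's ratio thus varied between libraries within each genotype, and the genotypes overlapped.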

How the data were processed

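The authors deposited estimated counts per gene symbol, not normalized. The submitters' processing notes name Bowtie2 2.3.4.3, RSEM 1.3.1 and GRCm38, and the annotation they used is not given in the sources used here. Of the values, 21.6% were not whole, and all were rounded before testing. Genes with at least 1 count (15315) were scaled by TMM and tested with edgeR (version 4.0.16, R 4.3.3) by the quasi-likelihood test, cKO against WT over 6 libraries and without WT replicate 2, with Benjamini-Hochberg adjustment. The fit was also run on simulated data with 200 changed genes. No simulated library stood apart as WT replicate 2 did, so that run cannot show how the fit deals with such a library. Alternatives used DESeq2 (1.42.0), limma (3.58.1), other scaling, filterByExpr (minimum count 10), a replicate block and each library left out. DESeq2 without WT replicate 2 and the lengths from all transcripts were added after the data were seen. Standard errors were derived from the F statistic. Ratios were tested by exact permutation, two-sided. Positions and exon lengths were from GENCODE vM21, and promoters from RefSeq. The members and lists were chosen with earlier results of these data known.

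The genes named were Psmb5 to Psmb11, Psme1 to Psme4, Pomp and Psma8, members past an unadjusted threshold of 0.05 or with groups that did not overlap, the 3 most abundant in CPM and per kilobase, the 3 largest changes each way at 5 CPM or more, members at 0, any that is no subunit, and in the other lists those past 0.05 and the 3 most abundant. Some genes of this rule are not reported here. Tap1 was added as the neighbor of Psmb9. Markers were described by their sums and by the count past 0.05. Replicates of a group differed by more than sampling noise.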

Additional observations from a re-analysis of the deposited data

How the results depend on the processing

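The count of proteasome genes at an unadjusted p under 0.05 stayed at 0 with DESeq2, median-of-ratios scaling, library size only, filterByExpr and the replicate block, and was 2 with voomWithQualityWeights (Psmb11 and Psme4, against 3.55% of all genes) and 0 to 2 when each library was left out (Psme4 without WT replicate 1, against 5.71%, and Psmg2 and Psmg3 without WT replicate 3, against 3.76%). The median log2 fold change of the members lay between -0.10 and 0.24 over all settings. The genotypes did not overlap for 4 genes with library size only (7.1% of all genes), and for 3 to 11 when each library was left out, where the share of all genes was 11.4% to 26.8%. With voomWithQualityWeights the log2 fold change turned to -0.04 for Pomp, -0.05 for Psmb10, 0.02 for Psmb3, -0.04 for Psmb6, -0.01 for Psmb8, -0.02 for Psmd14, -0.02 for Psme1 and 0.13 for Psme3. With DESeq2 without WT replicate 2 it turned to -0.14 for Pomp, -0.16 for Psmb10, -0.15 for Psmb5, -0.15 for Psmb6, -0.16 for Psmb8, -0.01 for Psmd12, -0.10 for Psmd14, -0.09 for Psme1, 0.15 for Psme3, -0.09 for B2m and -0.04 for Rps27a. When each library was left out in turn, the sign changed within -0.14 to 0.49 for Pomp, -0.44 to 2.12 for Psma8, -0.16 to 0.51 for Psmb10, -0.15 to 0.15 for Psmb3, -0.15 to 0.51 for Psmb5, -0.15 to 0.45 for Psmb6, -0.27 to 0.07 for Psmb7, -0.15 to 0.38 for Psmb8, -0.32 to 0.22 for Psmb9, -0.10 to 0.39 for Psmd14, -0.09 to 0.34 for Psme1, -0.35 to 0.21 for Psme2, -0.21 to 0.15 for Psme3, -0.08 to 0.54 for B2m and -0.03 to 0.53 for Rps27a. The cause was not tested. When each library was left out, the difference in log2 ratio was -0.16 to -0.31 for Psmb9 over Psmb6. Its sign could not change there, since the groups of that pair do not overlap. For Psmb10 over Psmb7 the difference was 0.06 to 0.74. Same-numbered WT and cKO libraries did not deviate together (correlations of 0.030, -0.164 and 0.193), so the numbers were not read as pairs. With a replicate block the ratio differences were -0.08, -0.25 and 0.48 for the 3 pairs. A block cannot change them, since each replicate number has 1 WT and 1 cKO library. Nlrc5 (-0.55) and Zfand2a (0.37) no longer passed the unadjusted threshold in edgeR with the block. The block changed no other call among the genes named here, while over all genes those under 0.05 went from 277 to 85. Nlrc5 (-0.63) and Zfand2a (0.32) also did not pass it with library size only, nor did Zfand2a with voomWithQualityWeights (0.31), where Ubqln2 passed (0.33). Psmb11 and Psma8, at 8 counts or fewer in every library, are limited by depth.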
